A study of Mus musculus with 4 samples.

Results

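A set of 10 genes used to name subtypes of cortical interneurons were followed through single-nucleus RNA sequencing of the mouse medial cortex at embryonic day 16.5. They were chosen by gene symbol from the 56884 genes in the deposited table, and they comprised 7 neuropeptide precursors (*Npy*, *Cck*, *Tac1*, *Penk*, *Pdyn*, *Vip* and *Crh*), the nitric oxide synthase *Nos1*, and the calcium-binding proteins *Calb1* and *Calb2*. The study compared 2 groups with 2 libraries each, 1 brain per library. The control embryos were *Sst-Cre/tdTomato*, and the Dnmt1 KO embryos were *Sst-Cre/tdTomato/Dnmt1 loxP2*, so that both genotypes carried the Cre driver and the reporter. Cre is expressed from the somatostatin gene, which confines the deletion of *Dnmt1*, encoding a DNA methyltransferase, to cells that have switched on *Sst*. The tissue was not sorted, and neither tdTomato nor Cre was in the gene table, so recombined nuclei were not marked as such.

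Neuropeptides are cut from longer precursors in the secretory pathway, stored in dense-core granules and act on G protein-coupled receptors of neighbouring cells. In the mature cortex, interneurons born in the medial ganglionic eminence (MGE) under the transcription factor *Lhx6* include the somatostatin cells. Part of these contain neuropeptide Y, calbindin, calretinin or nitric oxide synthase. Interneurons from the caudal ganglionic eminence (CGE), marked by *Adarb2*, include cells with vasoactive intestinal peptide, cholecystokinin or calretinin. Much of this peptide and calcium-binding protein expression is acquired during and after migration into the cortex.

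Nuclei were assigned by their own transcripts. GABAergic nuclei had at least 2 transcripts of *Gad1* and *Gad2* together, the enzymes that make GABA. Among them, the Sst gate had at least 1 *Sst* transcript, and the Lhx6, Adarb2 and Ebf1 gates had no *Sst* transcript, at least 2 transcripts of the named gene and fewer than 2 of each of the other 2 (*Ebf1* marks striatal projection neurons). Among nuclei below the *Gad* threshold, a Cajal-Retzius gate had at least 2 *Reln* and 1 *Trp73* transcripts, and excitatory nuclei had at least 2 transcripts of *Neurod2* and *Neurod6* together. Levels are given in CPM, the transcripts of a gene per 1000000 transcripts of all genes in the same nuclei of the same library, and a detected nucleus is one with at least 1 transcript.

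Of 1127729 barcodes, 29656 held 1500 to 60000 transcripts and were retained, between 4905 and 12064 per library, with a median of 12274 to 12401 transcripts in 3 libraries and of 21140 in control replicate 2, which the labels assign to batch 2. No barcode was shared between libraries. Lists of 4 values give the Dnmt1 KO libraries first and the controls last, each with replicate 1 before 2. There were 381, 1741, 1484 and 499 GABAergic nuclei, of which the Sst gate held 16, 133, 40 and 27, the Lhx6 gate 198, 652, 423 and 317, the Adarb2 gate 39, 426, 401 and 86, and the Ebf1 gate 2, 37, 60 and 2. The marker lists hold the gate genes themselves, so their sums partly restate the gates. The 7 MGE genes, *Lhx6* among them, summed to 3037 to 3963 CPM in the Lhx6 gate and 553.6 to 949.1 CPM in the Adarb2 gate. The 7 CGE genes, with *Adarb2*, came to 9121 to 24033 CPM in the Adarb2 gate and 70.8 to 136.2 CPM in the Lhx6 gate. In the Sst gate the MGE genes summed to 3341 to 5269 CPM. The Ebf1 gate had 5099 to 23499 CPM of 9 striatal genes, with *Ebf1*, and 42.0 to 2017 CPM of the MGE genes. Its lowest striatal sum was that of Dnmt1 KO replicate 2. There 8 glial, vascular and meningeal genes summed to 355.5 CPM, against 0 to 2.79 CPM in the gate's other libraries. Control replicate 1 stood apart in its GABAergic nuclei, where 9 striatal genes summed to 7125 CPM against 1401 to 2355 CPM in the other libraries. Its Adarb2 gate stood apart too. The striatal genes summed there to 6431 against 1988 to 2981 CPM, and the CGE genes to 9121 against 17035 to 24033 CPM. *Dnmt1* itself was counted over its whole length and measured 76.1, 46.7, 81.2 and 66.5 CPM in the Sst gate, where the genotypes overlap. In CPM, *Xist* came to 1281, 4.13, 1157 and 0.0887, so that each genotype had 1 library with high and 1 with low values.

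For 6 of the 10 members a promoter sequence was at hand, taken from RefSeq on GRCm38.p6 as 250 bases before to 50 after the transcription start. Neuropeptide genes are textbook targets of cyclic AMP signalling through the element TGACGTCA, and its half-site TGACG holds the CpG dinucleotide on which DNA methyltransferases act, so the windows of 30 bases around these sites are shown, with the site in capitals. The half-site, searched as TGACG or CGTCA and thus on both strands, was found in *Tac1*, *Cck*, *Vip* and *Nos1*, not in *Npy* or *Pdyn*, and in 20.8% of all 32851 promoters of the table. The whole element was held by *Sst*, the gate gene, shown for comparison, and by 1.79% of all promoters.
Sst, 48 bases upstream of the start, chr16:23890875-23890904, minus strand: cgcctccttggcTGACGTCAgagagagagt
Vip, 79 bases upstream, chr10:5639127-5639156, plus strand: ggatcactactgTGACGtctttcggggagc
Cck, 47 bases upstream, chr9:121495724-121495753, minus strand: cctgctggactgCGTCAgcactgggtaaac
Tac1, 43 bases upstream, chr6:7555006-7555035, plus strand: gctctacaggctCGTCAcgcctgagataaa
Tac1, 197 bases upstream, chr6:7554852-7554881, plus strand: tccctaaaattgCGTCAtttcgaacacaat
Nos1, 130 bases upstream, chr5:117866697-117866726, plus strand: aaaccagccatgCGTCAggcttggcttcag
The 300 bases held 24 CpG in *Npy*, 22 in *Tac1*, 10 in *Cck*, 6 in *Nos1*, 4 in *Vip* and 11 and 5 in the 2 promoters of *Pdyn*, beside a median of 7 over all promoters. These matches are descriptions of the sequence. DNA methylation was not measured in these libraries.

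The members were counted both inside and outside GABAergic nuclei. Of the 5 members with at least 100 transcripts, *Calb1* had the largest share in GABAergic nuclei. Of its 1570 transcripts, 35.7% lay in the Lhx6 gate and 16.6% in the Sst gate, populations that held 5.04% and 0.830% of all transcripts. *Npy* had 10.3% of its 1876 transcripts in the Sst gate and 15.7% in the Lhx6 gate, but 62.0% in excitatory nuclei. *Nos1* was counted 25989 times, 81.6% of them in excitatory nuclei, and *Calb2* had 31.5% of its 1640 transcripts in the Cajal-Retzius gate, with 1.94% of all transcripts. *Cck*, with 487 transcripts, followed the distribution of all transcripts most closely (57.3% against 59.4% in excitatory nuclei). The remaining 5 peptides were rare: 82 transcripts of *Penk*, 60 of *Tac1*, 35 of *Vip*, 29 of *Pdyn* and 9 of *Crh* in all retained nuclei.

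**Figure D1:**
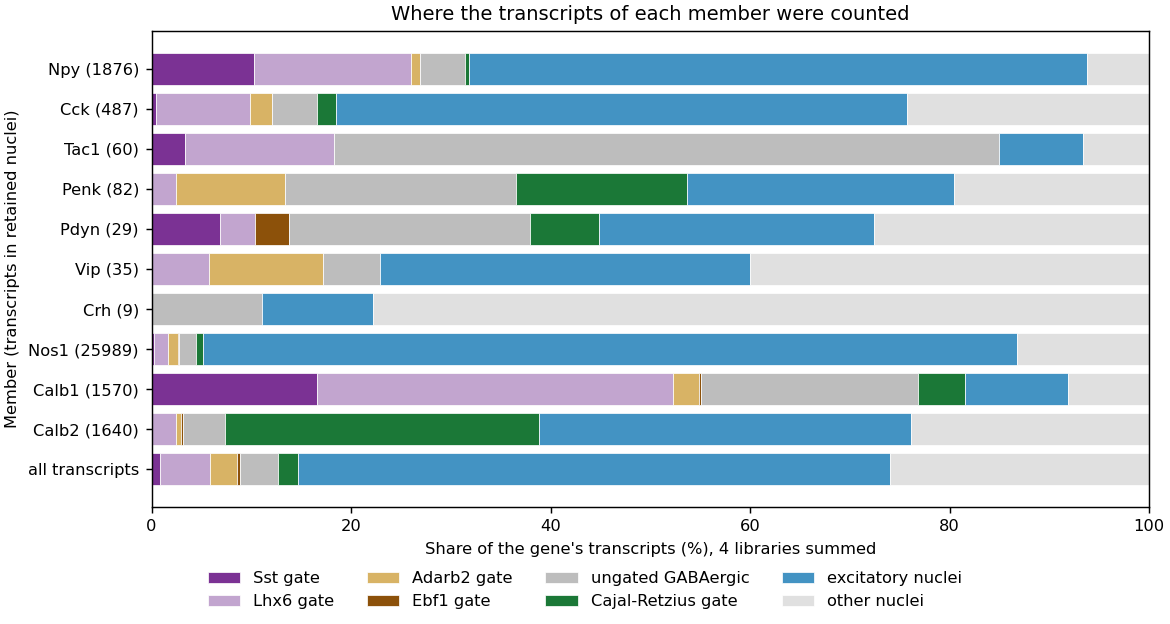
Share of each member's transcripts (percent, horizontal axis) counted in each population, the 4 libraries summed, with the total number of transcripts in parentheses and, at the bottom, the same split for all transcripts. Sst and Lhx6 gates take 16.6% and 35.7% of Calb1, the Cajal-Retzius gate 31.5% of Calb2, and excitatory nuclei 81.6% of Nos1 and 62.0% of Npy.

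*Npy*, the precursor of neuropeptide Y (chr6:49799026-49806489 on GRCm39, plus strand), marked the Sst gate. Its level there was 33.8, 51.1, 60.6 and 41.9 CPM. In the Lhx6 gate it was 8.86, 14.0, 15.1 and 10.6 CPM, lower than in the Sst gate of every library. The Adarb2 gate gave 0, 0.618, 1.10 and 4.14 CPM, and no transcript was counted in the Ebf1 gate. *Npy* was thus ordered Sst gate, Lhx6 gate, Adarb2 gate in each of the 4 libraries. Of the 16 transcripts in the Adarb2 gate, 4 were in nuclei with fewer than 2 transcripts of *Neurod2* and *Neurod6*. With the library as a block (edgeR quasi-likelihood test), *Npy* was higher in the Sst gate than in the Lhx6 gate by 1.93 ± 0.17 (SE) on the log2 scale, with an adjusted p of 0.00140, and this call held without any 1 library. It was the only one of 3 members tested that was called, beside 2.28% of all 10234 genes (1.72% higher and 0.557% lower). With 0, 3, 6 and 7 transcripts in the Adarb2 gate, *Npy* passed the filter on low counts through the Lhx6 gate alone, so its level in these gates is given as a description, with no test.

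In nuclei rather than transcripts, *Npy* was detected in 90 of 216 Sst gate nuclei. The share was 31.3% (95% exact binomial interval 11.02 to 58.7%), 40.6% (32.2 to 49.5%), 50.0% (33.8 to 66.2%) and 40.7% (22.4 to 61.2%). In the Lhx6 gate it was 8.59 to 11.04%, and among nuclei outside both the GABAergic class and the other gates it was 0.0408 to 1.30%, at median depths of 13207 to 22576, 10072 to 16906 and 9557 to 14060 transcripts. Intervals here and below cover counting error only. Thinned to 1500 transcripts per nucleus, the expected share was 5.32 to 10.4% in the Sst gate and 1.21 to 2.44% in the Lhx6 gate, so the order stood at equal depth. Positive Sst gate nuclei carried 2.14 *Npy* transcripts on average, and the highest count in 1 nucleus was 9.

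**Figure D2:**
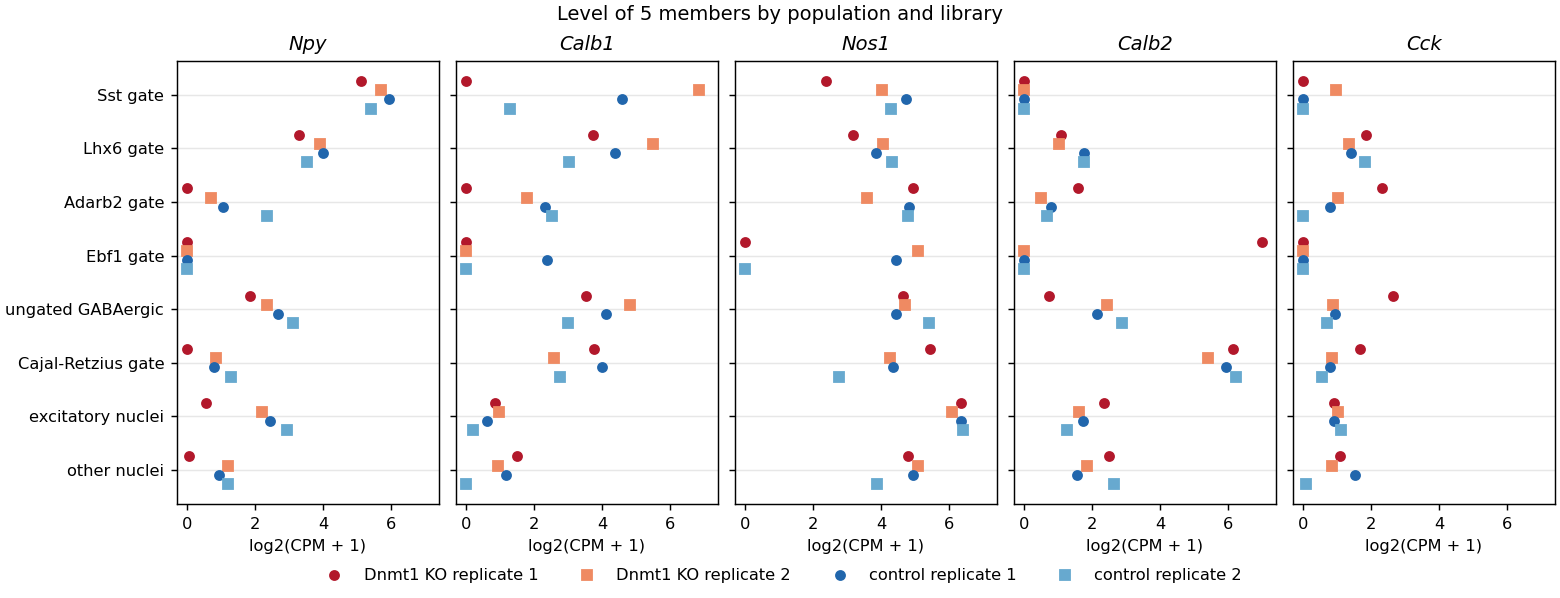
Level of Npy, Calb1, Nos1, Calb2 and Cck as log2(CPM + 1) (horizontal axis) in each population (rows), 1 point per library. Npy falls from the Sst gate through the Lhx6 gate to the Adarb2 gate in each library, Calb1 in the Sst gate spreads from 0 to 116 CPM, Nos1 is at 67.3 to 84.5 CPM in excitatory nuclei and Calb2 at 41.6 to 74.1 CPM in the Cajal-Retzius gate. The Calb2 point of the Ebf1 gate in Dnmt1 KO replicate 1 stands for 3 transcripts in 1 of 2 nuclei.

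Excitatory nuclei also contained *Npy*, at 0.470, 3.61, 4.47 and 6.63 CPM, detected in 0.554, 3.15, 3.35 and 5.76% of them. The genotypes did not overlap here, as was so for 38.4% of all genes tested in these nuclei, and Dnmt1 KO replicate 1 was the lowest by far. Of these 485 nuclei, 0, 6.67, 5.31 and 3.65% had a single *Gad* transcript, against 2.97, 4.54, 5.15 and 4.26% of *Npy*-negative excitatory nuclei. Over all 14647 excitatory nuclei there were 1163 *Npy* and 27 *Sst* transcripts. In all 4 libraries the *Npy*-positive excitatory nuclei had more *Tbr1* and *Fezf2*, transcription factors of deep-layer projection neurons, than the negative ones (*Tbr1* 103.9 to 154.2 against 63.6 to 93.8 CPM, *Fezf2* 52.5 to 84.4 against 32.5 to 54.5 CPM). They had less *Slc17a6*, the vesicular glutamate transporter of young neurons (3.25 to 34.0 against 79.5 to 144.0 CPM). Positive nuclei were deeper, with medians of 17912 to 31522 against 14364 to 23127 transcripts, and the part of depth in these differences was not tested.

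*Cck*, the cholecystokinin precursor (chr9:121315695-121324863, minus strand), had no population of its own. Its level was 0.870 to 1.15 CPM in excitatory nuclei, 1.53 to 2.58 CPM in the Lhx6 gate and 0 to 4.00 CPM in the Adarb2 gate, where 11 transcripts were counted in all. Between GABAergic and excitatory nuclei the difference was 0.56 ± 0.33 (log2, adjusted p = 0.276). Positive nuclei carried 1.08 transcripts on average in the GABAergic class, so nearly all detections rested on 1 transcript. Because 2 noncoding genes overlap *Cck* on the other strand and the strand setting of the counting is not given in the sources used here, part of these counts could belong to them.

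The rare peptides were spread over few nuclei. *Tac1*, encoding substance P and neurokinin A (chr6:7554120-7565834, plus strand), had 40 of its 60 transcripts in GABAergic nuclei of no gate, 34 of them in control replicate 1, the library with the high striatal marker sum, where 15 of 560 such nuclei were positive. It was at 0 in the Adarb2 and Ebf1 gates of all libraries, and the Lhx6 gate held 9 transcripts, 6 from replicate 2 of the Dnmt1 KO and 3 from that of the controls. *Penk*, the enkephalin precursor (chr4:4132722-4141856, minus strand), had 17 transcripts in the ungated GABAergic nuclei of control replicate 1 and 2 in those of the other libraries. The Cajal-Retzius gate held 8, 4, 0 and 2 of its transcripts, 17.1% of all, in 10 nuclei. There are 2 overlapping noncoding genes on its other strand. *Tac1* and *Penk* are both known from striatal projection neurons of the direct and indirect pathway. Whether such nuclei account for these counts was not tested.

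*Pdyn*, the dynorphin precursor (chr2:129528469-129541945, minus strand), was counted 11 times in GABAergic nuclei and detected in 0 to 0.404% of them. *Vip* (chr10:5589186-5599956, plus strand), which marks a major CGE subtype in the adult, had 4 transcripts in the Adarb2 gate, all in 1 nucleus of Dnmt1 KO replicate 1, and none in this gate of the other libraries. Its share of GABAergic nuclei, 0 to 0.262%, compared with 0 to 0.143% in the nuclei of no class. *Crh*, encoding corticotropin-releasing hormone (chr3:19747565-19749655, minus strand), had a single transcript in 4105 GABAergic nuclei. At this depth these peptides could not be compared between gates or genotypes.

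*Nos1*, the neuronal nitric oxide synthase (chr5:117918971-118096905, plus strand), was measured at 80.3, 67.3, 80.2 and 84.5 CPM in excitatory nuclei. It was detected in 47.8, 48.0, 50.7 and 62.3% of them, the last at the greater depth of control replicate 2. GABAergic nuclei gave 15.0, 17.99, 20.7 and 23.4 CPM. Every GABAergic value lay below every excitatory one, a difference of -2.08 ± 0.10 on the log2 scale (adjusted p = 7.21e-05). Within the GABAergic class the level was 4.23 to 25.5 CPM in the Sst gate, 8.12 to 18.9 CPM in the Lhx6 gate and 10.9 to 29.97 CPM in the Adarb2 gate, which overlap. Neither the Lhx6 against the Adarb2 gate (-0.46 ± 0.30, adjusted p = 0.455) nor the Sst against the Lhx6 gate (0.20 ± 0.27, adjusted p = 0.886) passed the test.

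The GABAergic *Nos1* level moved with excitatory markers. When GABAergic nuclei with at least 2 *Neurod2* or *Neurod6* transcripts were left out, 44, 246, 237 and 109 nuclei, *Nos1* was left at 6.05, 6.48, 10.8 and 5.18 CPM, and its difference from excitatory nuclei became -3.50 ± 0.18 (log2, adjusted p = 0.000126). In the Sst gate the same step left 5.79, 6.13, 8.92 and 5.51 CPM, and in the Lhx6 gate 0.484, 6.96, 5.86 and 5.13 CPM. By contrast, the GABAergic nuclei that remained had 6.32 to 11.8 CPM of *Npy*, beside 7.21 to 11.2 CPM before, and 9.18 to 42.6 CPM of *Calb1*, beside 6.32 to 35.5 CPM. Whether the nuclei left out were doublets was not tested. The annotation has 6 noncoding genes that overlap *Nos1*, 4 of them on the other strand, and the same doubt as for *Cck* applies.

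Among excitatory nuclei, *Fezf2* and *Ebf3* were lower in those with a *Nos1* transcript than in those without in each of the 4 libraries, *Ebf3* at 1.30 to 2.16 against 4.08 to 5.44 CPM. Medians of 15456 to 24899 against 13652 to 21770 transcripts again made the positive nuclei the deeper ones.

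*Calb1*, encoding calbindin (chr4:15881155-15908085, plus strand), had the largest fold between GABAergic and excitatory nuclei among the 5 members tested. In GABAergic nuclei it was 9.81, 35.5, 13.7 and 6.32 CPM and in excitatory nuclei 0.799, 0.941, 0.539 and 0.163 CPM. No library's GABAergic value came near its excitatory one, and the difference was 4.67 ± 0.28 on the log2 scale (adjusted p = 0.000144). The Lhx6 gate gave 12.2, 44.0, 19.6 and 7.12 CPM and the Adarb2 gate 0, 2.47, 4.02 and 4.73 CPM. The Lhx6 gate was the higher one in each library, by 2.87 ± 0.48 (log2, adjusted p = 0.00585). Without Dnmt1 KO replicate 2 this difference was 1.96, with an adjusted p of 0.0635.

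The Sst gate itself was uneven in *Calb1*. It gave 0, 115.7, 23.0 and 1.44 CPM. Of 260 *Calb1* transcripts, 240 came from Dnmt1 KO replicate 2, up to 35 from 1 nucleus. Detection followed, with 0 of 16 nuclei (interval 0 to 20.6%), 35.3% (27.3 to 44.1%), 25.0% (12.7 to 41.2%) and 3.70% (0.0937 to 19.0%). Both genotypes thus held a high and a low library, and the Sst gate did not differ from the Lhx6 gate beyond this spread (0.62 ± 0.41, adjusted p = 0.656).

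*Calb2*, encoding calretinin (chr8:110864128-110894881, minus strand), marked the Cajal-Retzius gate, transient reelin-secreting cells of the cortical surface. Its level there was 70.4, 41.6, 60.1 and 74.1 CPM, and 47.1, 32.8, 49.1 and 50.7% of the nuclei were positive. Excitatory nuclei had 1.41 to 4.07 CPM and GABAergic nuclei 1.60 to 2.55 CPM, far below each Cajal-Retzius value. The Ebf1 gate of Dnmt1 KO replicate 1 alone stood above, with 3 transcripts in 1 of its 2 nuclei. No *Calb2* transcript was counted in the 216 Sst gate nuclei. By counting alone, with the nuclei of all libraries pooled, this allows up to 1.39% of such nuclei to hold a transcript at this depth. Within single libraries the exact 95% intervals reach 20.6, 2.74, 8.81 and 12.8%. Neither bound limits how many nuclei express the gene. The Adarb2 gate held 8 transcripts in 952 nuclei. Calretinin marks adult interneurons of the CGE lineage, and the paper also reports it in adult *Sst-Cre/tdTomato* cells of both genotypes. GABAergic and excitatory nuclei did not differ beyond the spread (-0.18 ± 0.31, adjusted p = 0.722). The *Calb2*-positive excitatory nuclei had more *Reln* in all 4 libraries, at 36.6 to 278.1 against 26.3 to 101.3 CPM, whereas the other Cajal-Retzius markers compared were not higher throughout (*Ebf3* higher in 1 and *Lhx5* in 2 of 4 libraries). *Calb1* was likewise present in the Cajal-Retzius gate, at 12.6, 5.06, 15.0 and 5.85 CPM.

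**Figure D3:**
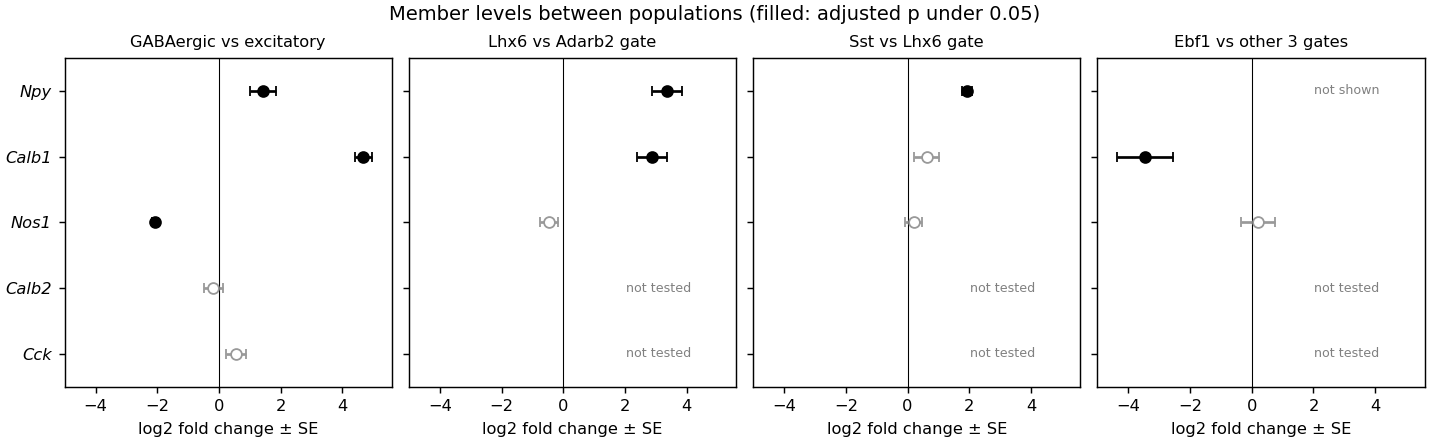
log2 fold change (horizontal axis, point) with its standard error (bar) of 5 members between populations, each fitted with the library as a block; filled points have an adjusted p under 0.05. Npy and Calb1 are higher in GABAergic nuclei, Calb1 is higher in the Lhx6 than in the Adarb2 gate (Npy entered that panel only through its counts in the Lhx6 gate), Nos1 is lower in GABAergic nuclei by 2.08, and only Npy separates the Sst from the Lhx6 gate. Npy has no transcript in the Ebf1 gate and is not shown there, and Calb1, with 3 transcripts in that gate, entered its panel only through the other gates. The fill of Calb1 in the Ebf1 panel and of Npy in the Lhx6 against Adarb2 panel is not read as a test.

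Set against all genes, 3 of 5 members tested were called between GABAergic and excitatory nuclei, 2 higher (*Calb1* and *Npy*) and 1 lower (*Nos1*), beside 26.9% of 17113 genes (13.2% higher and 13.7% lower). For *Npy* the difference was 1.43 ± 0.41 (adjusted p = 0.0483), and the call was lost without Dnmt1 KO replicate 2 (adjusted p = 0.159), control replicate 1 (0.0743) or control replicate 2 (0.0812). Between the Lhx6 and Adarb2 gates *Calb1* was called higher in the Lhx6 gate and *Nos1* was not called, beside 12.2% of 12222 genes (4.88% higher and 7.3% lower). The Ebf1 gate had 101 nuclei, 97 of them in 2 libraries. There 3 *Calb1* transcripts were counted, all in control replicate 1, and *Npy*, with 0 of 1381518 transcripts, was at least 5.86-fold higher in the other 3 gates pooled, at a floor of 3 transcripts over the gate. Both passed the filter on low counts only through the other gates, where they are high, so they are given with no test. *Nos1* was not called (0.21 ± 0.56), beside 2.59% of 9761 genes (0.984% higher and 1.61% lower).

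Deletion of *Dnmt1* was compared in each population, the question being whether the subtype genes differ between genotypes in the cells that delete it and in those that do not. No member was called at an adjusted p under 0.05 (edgeR) in any of the 6 populations, where 5, 3, 5, 2, 0 and 5 members passed the filter on low counts in all GABAergic nuclei, the Sst, Lhx6, Adarb2 and Ebf1 gates and excitatory nuclei. None had an unadjusted p under 0.05 either, DESeq2 called no member (for *Calb1* in excitatory nuclei it gave no adjusted p), and edgeR called 0% of all genes in these comparisons, with 122 to 1147 genes at an unadjusted p under 0.05 per population, where DESeq2 called 0 to 53. The p-values measure the spread between 2 brains per genotype.

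For *Npy*, the genotypes overlapped in the Sst and Lhx6 gates with all nuclei of the gates included. In the Sst gate it averaged 42.5 ± 12.2 CPM (SD, n = 2) in the Dnmt1 KO and 51.3 ± 13.2 CPM (n = 2) in controls, and the fitted difference was -0.11 ± 0.33 (log2, adjusted p = 1.00). In the Lhx6 gate it averaged 11.4 ± 3.65 against 12.8 ± 3.15 CPM, a difference of -0.04 ± 0.29. The gap depended on which nuclei were kept. With the *Neurod*-positive nuclei left out, the level in the Sst gate was 34.8, 52.7, 91.4 and 71.6 CPM, and the difference -0.78 ± 0.34 (adjusted p = 1.00). With barcodes kept by reads in place of transcripts, the level was 33.6, 52.5, 100.7 and 87.2 CPM and the difference -1.03 ± 0.34 (adjusted p = 0.999), over 17, 125, 32 and 14 nuclei. In both cases the Dnmt1 KO libraries lay below the controls. So did the all-nuclei values of *Npy* in ungated GABAergic nuclei, at 3.39 ± 1.08 against 6.53 ± 1.51 CPM. In the Adarb2 gate they were 0.309 ± 0.437 against 2.62 ± 2.15 CPM, from 0 and 3 transcripts in the Dnmt1 KO libraries. The 0 in 39 nuclei allows up to 7.37 CPM (95% interval), above both controls, so no order is read there. Order without overlap was found for 28.8 to 38.4% of all genes in the 6 populations tested. These do not include the ungated nuclei or the alternative choices of nuclei. Excitatory nuclei gave 2.04 ± 2.22 against 5.55 ± 1.53 CPM, a difference of -1.35 ± 0.82 (adjusted p = 0.797). Leaving out Dnmt1 KO replicate 1 reduced it to -0.60, and without control replicate 2, which leaves batch 1, it was -1.06. The difference between the genotype effects in GABAergic and in excitatory nuclei was 1.46 ± 0.64 (adjusted p = 1.00).

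*Calb1* had the largest fitted differences in each of the 5 populations where it was tested. They were 1.24 ± 0.65 (adjusted p = 0.828) in all GABAergic nuclei, 2.59 ± 1.17 (adjusted p = 1.00) in the Sst gate and 1.26 ± 0.58 (adjusted p = 0.853) in the Lhx6 gate. Without Dnmt1 KO replicate 2 they were -0.036, -5.91 and -0.059, so the differences in all GABAergic nuclei and the Lhx6 gate were near 0, and the value for the Sst gate is a fit to 0 transcripts in the 16 nuclei of the remaining Dnmt1 KO library and no measure of size. Within batch 1 they were 0.83, 1.72 and 0.68. In the Sst gate the call appeared when Dnmt1 KO replicate 1 (3.21, adjusted p = 0.0273) or control replicate 1 (5.65, adjusted p = 0.0252) was left out. In the Adarb2 gate the fitted difference was -0.97 ± 0.67 and in excitatory nuclei 1.40 ± 0.58. Its libraries did not overlap in either, as was so for 35% and 38.4% of all genes. In the Adarb2 gate this rests on 0 positive of 39 nuclei in Dnmt1 KO replicate 1, a value at the floor.

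*Nos1* was lower in the Dnmt1 KO in all GABAergic nuclei, at 16.5 ± 2.10 against 22.0 ± 1.93 CPM (SD, n = 2 each). The libraries did not overlap, as was the case for 37.5% of all genes tested there, and the difference was -0.38 ± 0.16 (adjusted p = 0.828). It did not overlap in the Sst gate either (9.82 ± 7.91 against 22.1 ± 4.72 CPM), beside 34.2% of all genes. There, 1 of the 16 nuclei of Dnmt1 KO replicate 1 held *Nos1*. With the *Neurod*-positive nuclei left out, the Sst gate libraries overlapped (5.79, 6.13, 8.92 and 5.51 CPM), as they did with barcodes kept by reads (4.20, 8.84, 20.1 and 5.13 CPM), and the difference in all GABAergic nuclei was -0.34 ± 0.39. In excitatory nuclei, where *Nos1* was counted most, the difference was -0.13 ± 0.12 (adjusted p = 0.843). *Calb2* in GABAergic nuclei was 1.71 ± 0.158 against 2.35 ± 0.279 CPM, a difference of -0.40 ± 0.34 (adjusted p = 0.862), and in the Lhx6 gate the difference was -1.10 ± 0.48 (adjusted p = 0.853), again without overlap, as for 37.3% of all genes tested there. These *Calb2* values rest on few nuclei. The Lhx6 gate held 3, 9, 13 and 16 transcripts in 3, 4, 4 and 3 nuclei. In control replicate 2, 14 of them were in 1 nucleus, and 10 more were in 1 ungated nucleus. The share of positive Lhx6 gate nuclei, 1.52, 0.613, 0.946 and 0.946%, overlapped between genotypes. *Cck* in GABAergic nuclei differed by 0.62 ± 0.67 (adjusted p = 0.893).

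**Figure D4:**
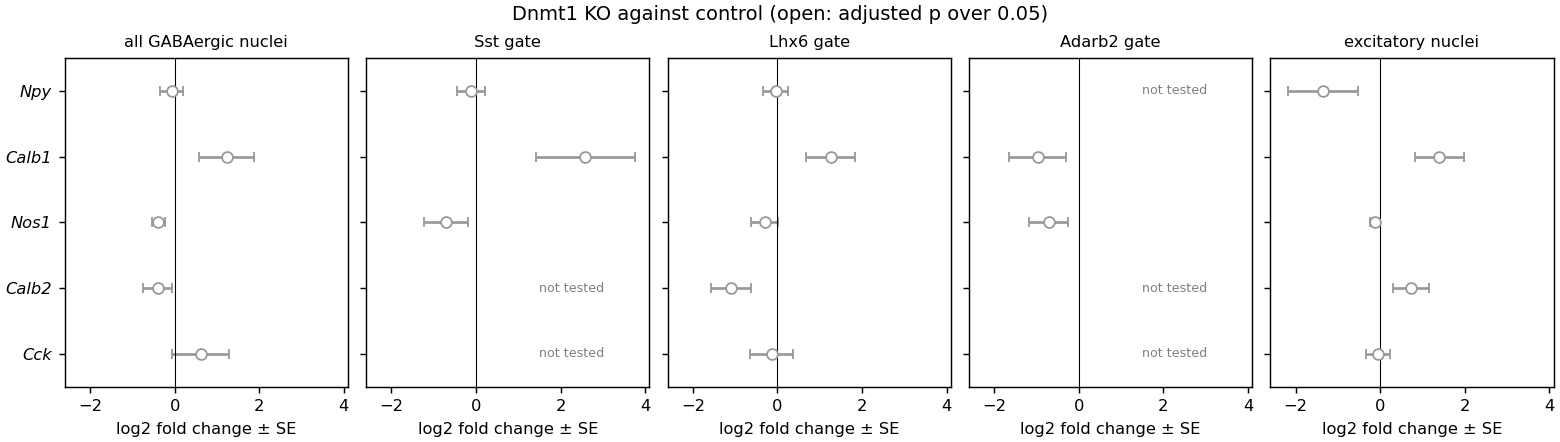
log2 fold change of Dnmt1 KO over control (horizontal axis, point) with its standard error (bar) for 5 members in 5 populations, from 2 libraries per genotype; open points have an adjusted p over 0.05. No member passed the test, and the widest bar is that of Calb1 in the Sst gate, 2.59 ± 1.17.

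As shares of the Sst gate, *Npy* was detected in 9.44 percentage points fewer nuclei in the Dnmt1 KO, *Nos1* in 9.02 points fewer and *Calb1* in 3.32 points more. With 2 libraries per genotype, the two-sided exact permutation test cannot give a p under 0.333, which it gave for *Npy* and *Nos1*, and it gave 1.00 for *Calb1*. After thinning to 1500 transcripts the differences were -2.79, -0.760 and 3.53 points. The *Nos1* difference was -0.336 points without the *Neurod*-positive nuclei and -1.72 points with barcodes kept by reads. For *Npy* these alternatives gave -10.1 points each, with p = 0.667 by the exact permutation test, since the genotypes then overlapped.

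**Figure D5:**
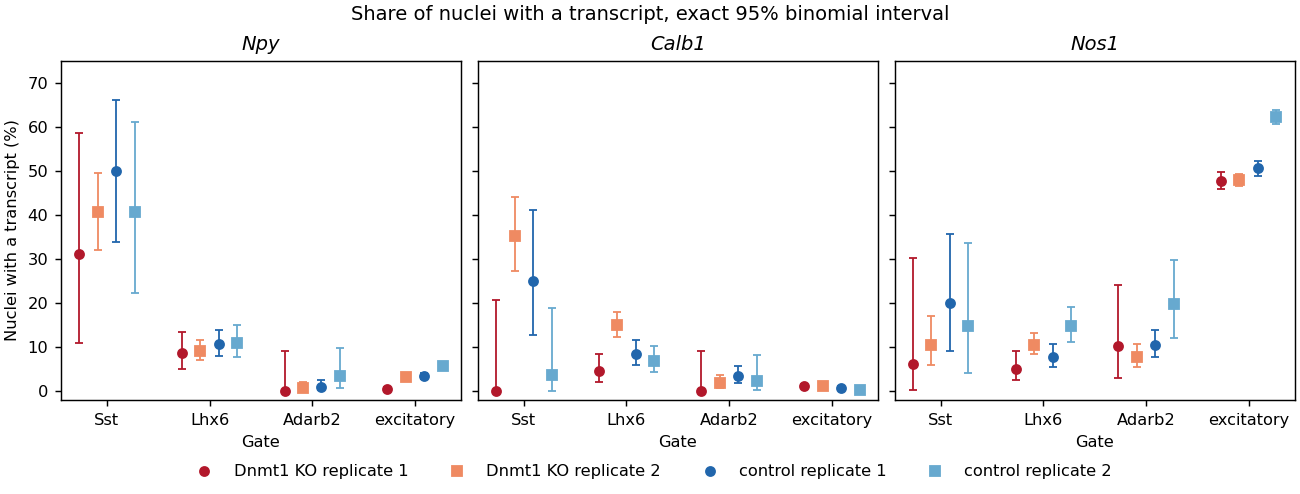
Share of nuclei with at least 1 transcript (percent, vertical axis) of Npy, Calb1 and Nos1 in 3 GABAergic gates and in excitatory nuclei, 1 point per library with its exact 95% binomial interval. Npy is detected in 31.3 to 50.0% of Sst gate nuclei in all 4 libraries, and Calb1 in 0 to 35.3%.

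Detection in the same nucleus was compared with the product of the separate shares within each library, summed over libraries. *Npy* and *Sst* were found together in 90 GABAergic nuclei where 17.2 would follow from the separate shares, more than expected in each library. Every GABAergic nucleus with *Sst* is in the Sst gate, so the pairs with *Sst* restate detection in that gate. *Calb1* and *Sst* were found together in 58 against 19.8, of which 47 against 15.2 were in Dnmt1 KO replicate 2, while replicate 1 had 0 against 0.504 and control replicate 2 had 1 against 1.52. *Npy* and *Calb1* shared 57 nuclei against 26.0, of which 39 against 15.7 were in Dnmt1 KO replicate 2, while control replicate 2 had 2 against 3.14, and within the Sst gate they shared 29 against 24.5. *Cck* and *Sst* shared 2 nuclei against 3.90. *Nos1* and *Npy* met in 49 nuclei against 35.4 and *Nos1* and *Calb1* in 51 against 36.6. By library the first pair had 1, 22, 10 and 16 nuclei against 1.71, 15.0, 9.35 and 9.43. The second had 0, 30, 15 and 6 against 0.787, 21.7, 9.35 and 4.71. Depth differs between nuclei and can raise joint detection above the product, and its part here was not tested. Of the 216 Sst gate nuclei, 88 had no transcript of any member, and the number with at least 2 members was 0, 31, 9 and 3 in the 4 libraries.

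The genes with the pattern most like each member were sought by Pearson's r of log2(CPM + 1) over 24 sums (6 populations in 4 libraries) among 8094 genes with a mean of at least 10 CPM. The sums share libraries and differ in depth, and the Ebf1 gate has only 2 nuclei in 2 of them, so r is a description. *Npy* was nearest to *Gpr45* (r = 0.89), *Gm13986* (0.86) and *Pclo* (0.86), and *Calb2* to *Diablo* (0.93), *Cpeb1* (0.90) and *Ptpre* (0.90). *Nos1* was nearest to *Neurod2* (0.92), which defines the excitatory nuclei, *Arpp21* (0.90) and *Tes* (0.89). *Calb1* had lower values, with *4933430M04Rik* (0.72), *Kcnh4* (0.68) and *Unc5c* (0.68), and *Cck* reached 0.64 with *Umad1* and *Glis3* and 0.63 with *Adamts17*.

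The partners of the members were taken from 4 lists of 38 genes in all, none of which was called between genotypes in any population (edgeR). Of 14 receptors, 11 were tested between GABAergic and excitatory nuclei, 4 were called higher in GABAergic nuclei and 2 lower, beside 13.2% and 13.7% of all genes, which is also the background of the lists that follow. The neuropeptide Y receptor *Npy2r* was higher by 4.15 ± 0.26 (adjusted p = 0.000181), with 223 transcripts in GABAergic and 50 in excitatory nuclei, and it was found in the Sst gate at 16.9, 15.4, 4.85 and 4.33 CPM. The cholecystokinin receptor *Cckbr* (1.60 ± 0.33), the tachykinin receptor *Tacr1* (1.19 ± 0.28) and the opioid receptor *Oprm1* (1.62 ± 0.43) were higher too. *Oprm1* was at 30.4 CPM in the GABAergic nuclei of control replicate 1 against 4.81 to 8.68 CPM elsewhere, the library whose striatal marker sum was also the highest. *Vipr1* (-1.97 ± 0.22) and *Crhr1* (-0.74 ± 0.16), receptors for vasoactive intestinal peptide and corticotropin-releasing hormone, were lower. The median over the receptors tested was 0.68, and over all genes 0.00.

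Among the gates, *Npy1r* measured 9.99, 4.12, 3.29 and 9.46 CPM in the Adarb2 gate and 0.738, 0.707, 0.551 and 1.52 CPM in the Lhx6 gate, where its 21 transcripts did not pass the filter on their own, so that no test is given. Every Adarb2 gate value lay above every Lhx6 gate value.

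All 10 genes of peptide processing and granules were tested between GABAergic and excitatory nuclei. *Pcsk1*, a prohormone convertase (1.34 ± 0.21), *Pam*, the amidating enzyme (0.61 ± 0.11), *Cpe*, carboxypeptidase E (0.46 ± 0.06), and *Pcsk1n*, which encodes an inhibitor of the convertase (0.51 ± 0.13), were higher in GABAergic nuclei, and the granule protein *Chga* was lower (-0.63 ± 0.08). *Pam* was also higher in the Lhx6 than in the Adarb2 gate, by 1.17 ± 0.12 (adjusted p = 0.000487), at 1013 to 1154 against 395.6 to 588.8 CPM. The median of the list was 0.00. Of the 4 partners of nitric oxide signalling, the adaptor *Nos1ap* (0.39 ± 0.06) and the guanylate cyclase subunit *Gucy1a1* (0.89 ± 0.22) were higher in GABAergic nuclei and the scaffold *Dlg4* lower (-0.43 ± 0.06). *Gucy1a1* was lower in the Sst than in the Lhx6 gate by -1.43 ± 0.28 (adjusted p = 0.0338), at 4.23 to 72.7 against 69.8 to 99.4 CPM.

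Of 10 other peptide and subtype genes, the chemokine *Cxcl14* was higher in GABAergic nuclei by 3.74 ± 0.46, with 110 transcripts there and 31 in excitatory nuclei, and the peptide *Adcyap1* was lower (-2.51 ± 0.21). *Htr3a*, the serotonin receptor of CGE interneurons, had 447 transcripts in GABAergic and 20 in excitatory nuclei, and the peptide *Tac2* had 17 and 206. Each of these passed the filter in 1 of the populations only and is given with no test. *Htr3a* was lower in the Lhx6 than in the Adarb2 gate (-3.23 ± 0.39, adjusted p = 0.00113), and *Cxcl14* had 99 transcripts in the Adarb2 gate and none in the Lhx6 gate. *Htr3a* was listed at 0 in the Ebf1 gate of each library. *Chodl* and *Cort*, known from long-range and other somatostatin cells, had 21 and 2 transcripts in the Sst gate, too few to test, and *Pvalb*, the marker of the other large MGE class in the adult, had 11 in all GABAergic nuclei. *Chodl* was not confined to the Sst gate, with 38 transcripts in the Adarb2 gate and 763 in excitatory nuclei.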

How the data were processed

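The authors isolated nuclei from frozen tissue, barcoded them by split-pool combinatorial indexing (Parse Evercode), aligned reads to mm39 (GRCm39) with Trailmaker, and deposited the resulting transcript counts for each barcode without filtering or normalization. Its version, the annotation release, and the treatment of introns and strand are not given in the sources used here. Depth was 75338095 to 172783347 transcripts per library over the retained nuclei. A barcode was kept if it held 1500 to 60000 transcripts and its mitochondrial share did not exceed 10% (which removed 0), and gates were set on the counts. No doublet caller was run. Nuclei are not replicates, so counts were summed per library and population and tested with edgeR 4.0.16 in R 4.3.3 (quasi-likelihood test, TMM, its default filter on low counts, Benjamini-Hochberg adjustment over all genes tested, threshold 0.05), with library as a block between gates. DESeq2 1.42.0 was an alternative. Libraries are grouped by sample title. The members, gene lists and tests were chosen with earlier results of these data known. Named genes were the members, list genes called in a comparison, and the 3 genes most correlated with each member that had at least 100 transcripts in GABAergic and excitatory nuclei. The list genes *Chodl*, *Cort* and *Pvalb* were named as well, without a call. Gene coordinates are from GENCODE on GRCm39, matched by identifier, and promoter coordinates are on GRCm38.p6. Levels are compared within genes, since CPM is not scaled to length.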

Additional observations from a re-analysis of the deposited data

How the results depend on the processing

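Without the filter on low counts, 1 member was called between genotypes in all GABAergic nuclei, 1 in the Sst gate and 1 in the Lhx6 gate. In excitatory nuclei it was 2, and for the difference between GABAergic and excitatory nuclei 1. Of all genes, 604 of 29341 were then called in GABAergic nuclei, 50 of 19541 in the Sst gate and 142 of 25308 in the Lhx6 gate. The Adarb2 gate gave 183 of 23313, the Ebf1 gate 20 of 17193, excitatory nuclei 607 of 34469 and the difference 280 of 35315. With the filter, each of these was 0. DESeq2 called 40, 0, 3, 9, 0, 53 and 4 of all genes there. Without the filter, 731 genes were called between the Sst and Lhx6 gates, against 233 with it, and 726 between the Ebf1 gate and the others, against 253, where a gate threshold of 1 gave 88. Calls of members for the Ebf1 gate are not counted, since *Npy* and *Calb1* passed the filter only through the other gates. Single values turned direction in these cases, all in log2: with barcodes kept by reads in place of transcripts, *Calb2* by genotype in GABAergic nuclei (1.10), *Cck* by genotype in excitatory nuclei (0.14), *Nos1* between the Sst and Lhx6 gates (-0.11), and *Pdyn* (-0.38), *Nos1* (0.0092) and *Calb2* (0.59) for the difference between genotype effects; with *Neurod*-positive nuclei left out, *Pdyn* for that difference (-0.042); at a gate threshold of 3, *Npy* by genotype in the Lhx6 gate (0.084); and with DESeq2, *Calb1* between the Sst and Lhx6 gates (-0.61). The cause was not tested.

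Leaving out 1 library at a time leaves 1 sample in a group, which is assumed to vary like the others. Calls of members are not counted for these fits, since those between the gates rest in part on members that passed the filter through 1 gate only. The log2 genotype differences that turned ranged from -0.46 to 0.18 for *Npy*, -0.19 to 1.38 for *Cck* and -0.036 to 1.90 for *Calb1* in GABAergic nuclei, -0.53 to 0.22 for *Npy* and -5.91 to 5.65 for *Calb1* in the Sst gate, and -0.47 to 0.23 for *Npy*, -0.42 to 0.33 for *Cck*, -0.95 to 0.0035 for *Nos1* and -0.059 to 2.13 for *Calb1* in the Lhx6 gate. They ranged from -1.24 to 0.18 for *Nos1* in the Adarb2 gate and, in excitatory nuclei, from -0.24 to 0.15 for *Cck* and -0.26 to 0.0023 for *Nos1*. Between populations, *Calb1* (-0.61 to 0.85) and *Nos1* (-0.10 to 0.32) turned for the Sst against the Lhx6 gate, *Nos1* (-0.57 to 0.43) for the Ebf1 gate and *Calb2* (-0.50 to 0.057) for GABAergic against excitatory nuclei. For the difference between genotype effects the ranges were -0.26 to 1.55 for *Cck*, -0.49 to 0.68 for *Pdyn*, -1.32 to 0.34 for *Calb1*, -1.09 to 2.11 for *Tac1* and -8.29 to 5.16 for *Penk*. The share of Sst gate nuclei with *Calb1* differed by -14.4 to 21.0 points.

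Replicate numbers are shared by the genotypes, but no label says that they mark a pair. They coincide with the level of *Xist* (1157 to 1281 CPM in replicates 1, 0.0887 to 4.13 CPM in replicates 2) and, inversely, of *Uty* (2.32 to 2.60 against 142.9 to 167.0 CPM), so the block is also one of sex as read from these genes, and the correlation of same-numbered libraries was -0.149 to 0.0407. With the replicate block, 0 members were called in any population, and of all genes 2 in the Lhx6 and 2 in the Ebf1 gate. A crossed pairing in the Adarb2 gate and excitatory nuclei, chosen after seeing the data, gave 0 calls. The fit without *Neurod*-positive nuclei could not be made for the Ebf1 gate. Of the values that answer a comparison, 129 kept their direction and side of the threshold (counts within 1.5 times) over the alternatives, 13 moved and 2 turned. Of the remaining values, which include those of single members and counts of all genes called, 466 kept both, 36 turned, 36 moved, 11 lost and 8 gained the call. No value of a single member was among those that moved. Both tallies include fits of *Npy* and *Calb1* between gates for which no test is given above.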
